A study of Homo sapiens with 4 samples.

Results

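IFITM1, IFITM2 and IFITM3 are neighbouring genes on chromosome 11 that encode interferon-induced transmembrane proteins. The members were the probe sets of the array whose single annotated symbol was one of these 3 genes, which gave 3 probe sets, 1 for each gene, of 54613 that are not controls. They were chosen from the readout of this contrast, because IFITM1 had the largest rise of any gene in spheroids against monolayers. The change of the 3 genes between the cultures is therefore given as a description with no test. The study measured mRNA on 4 Affymetrix arrays in the colon carcinoma line HCT116, which is an established human cell line. Both versions of the line named in the labels, HCT116 wt/GFP and HCT116 wt, were grown as spheroids, which are rounded multicellular aggregates, and as a monolayer on a flat surface. Each line and culture had 1 array, so that each culture had 2 arrays, paired by line. No treatment, time in culture or further allele is given for any array, and whether the arrays came from separate cultures is not stated, so p-values measure only the spread between these arrays, which may be technical.

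IFITM proteins are small membrane proteins of the CD225 family that block virus entry by hindering fusion of the viral envelope with cell membranes. IFITM1 sits mainly at the cell surface, where it is also known as CD225 or Leu-13, whereas IFITM2 and IFITM3 sit mainly in endosomes and lysosomes. Their genes are induced when interferon receptors activate transcription factors that bind interferon-stimulated response elements in promoters, IRF9 among them, and they are known to be raised in colorectal tumours.

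The promoters of IFITM1 and IFITM3 are shown because both genes were higher in spheroids and because each holds a pair of matches to the core of such an element, here the letters GAAA, any 2 bases and GAAA again, searched on both strands. The sequences are from RefSeq on GRCh38.p14 and run 5′ to 3′ along the gene, from 250 bases before to 50 bases after its start, with the matches in capitals. The IFITM1 window lies at chr11:313790-314089 on the plus strand and the IFITM3 window at chr11:320811-321110 on the minus strand. An entry for IFITM2 was not used here.
IFITM1: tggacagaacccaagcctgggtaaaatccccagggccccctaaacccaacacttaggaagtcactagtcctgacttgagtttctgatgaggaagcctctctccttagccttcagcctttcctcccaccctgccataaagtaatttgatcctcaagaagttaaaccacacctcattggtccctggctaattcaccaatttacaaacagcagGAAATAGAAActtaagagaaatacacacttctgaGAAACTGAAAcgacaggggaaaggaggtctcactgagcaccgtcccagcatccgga
IFITM3: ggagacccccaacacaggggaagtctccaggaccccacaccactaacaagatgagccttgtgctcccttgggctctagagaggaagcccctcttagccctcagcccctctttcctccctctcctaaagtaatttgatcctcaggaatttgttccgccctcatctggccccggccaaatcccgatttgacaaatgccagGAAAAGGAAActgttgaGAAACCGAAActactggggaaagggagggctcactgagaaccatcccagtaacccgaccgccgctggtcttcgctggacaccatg
The IFITM1 matches were GAAATAGAAA, beginning 40 bases before the gene start, and GAAACTGAAA, beginning 6 bases before it. The IFITM3 matches were GAAAAGGAAA and GAAACCGAAA, beginning 52 and 35 bases before the start. Of 35116 promoters of the same length, 3.57% held at least 1 match and 91, or 0.259%, held 2 or more. Holding 2 or more was common among the interferon-stimulated genes listed below, so the pair is not particular to IFITM1 and IFITM3. Among those that rose in spheroids, 8 of 17 promoters, or 47.1%, held 2 or more. Among tested ones that did not rise, 4 of 16, or 25%, held 2 or more. The core of a gamma-activated site, TTCNNNGAA, had 1 match in the IFITM1 window, TTCTGAGAA, which overlaps the second element match. It had 0 matches in the IFITM3 window and occurred in 7.66% of all promoters. In a global alignment of the 2 windows, 213 bases were identical, which was 63.6% of the aligned columns with gaps counted. A match is a description of letters in these windows and says nothing of whether a factor bound there.

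As a check of the label, 7 of 8 markers of colon epithelium were above the filter on low signals described below, beside 14349 of 19775 genes. EPCAM, KRT8 and KRT18 were bright, while KRT20 and CDH1 were 5.68-fold and 5.12-fold higher in spheroids. The intestinal markers were dim. CDX2 had 33.1 to 81.6 over the 4 arrays, VIL1 averaged below the filter in the monolayers, and CDH17 was below the filter. Of the fibroblast markers, 3 of 4 were above the filter, near the share of all genes, so the count says little. Their summed signals were 3992 and 2388 in wt/GFP and wt spheroids, against 410 and 397 in the monolayers. COL1A1, which encodes a collagen chain, made up most of these sums, THY1 had only 24.3 to 59.5, and PDGFRB was below the filter. COL3A1 averaged below the filter in the monolayers and was above it only through its spheroid signals. Of endothelial markers 1 of 3 was above it, with sums of 270 and 211 in spheroids and 117 and 134 in monolayers. Of leukocyte markers 2 of 4 were above it, with sums of 279 and 276 in spheroids and 246 and 336 in monolayers, and PTPRC and CD14 were below it. The ratio of the 3' to the 5' probe set of ACTB, a sign of RNA integrity, was 1.73 and 1.76 in spheroids and 1.30 and 1.32 in monolayers. The same ratio for GAPDH did not separate the cultures. It was 0.95 and 0.87 in wt/GFP and wt spheroids, against 0.88 and 0.90 in wt/GFP and wt monolayers. The part of these markers and ratios in the changes below was not tested.

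IFITM1 went with the culture on every array. Its probe set, 214022_s_at, had signals of 5643 and 6157 in wt/GFP and wt spheroids, against 153 and 163 in wt/GFP and wt monolayers. The lower spheroid array thus lay far above the higher monolayer array, and the 2 lines gave nearly equal values within each culture. On the scale used throughout, log2(signal + 14.0), the change was 5.08 in wt/GFP and 5.13 in wt. The mean of both, 5.10 (SD 0.032, n = 2 lines), corresponds to 34.4-fold. These are MAS5 signals, which are scaled to a common mean on each array, and in such bulk samples more cells that express a gene and more RNA per cell cannot be told apart.

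IFITM1 ranked first of 14349 genes when each gene was taken by its brightest probe set. When every probe set was ranked alone, it was number 2 of 32768. The first place fell to 223333_s_at, a second probe set of ANGPTL4, a secreted inhibitor of lipoprotein lipase, with 35.5-fold. Its monolayer signals of 14.1 and 10.2 lay under the filter of 30.6, so that its fold depends on the pseudocount. Number 3 was the shared IFITM probe set described below, and number 4 was PNRC1, a nuclear receptor coactivator, with 26.9-fold. The place of IFITM1 depended on the treatment of dim signals, being number 6 without a pseudocount and number 1 with the median signal as pseudocount or after quantile normalization.

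IFITM2, through probe set 201315_x_at, had signals of 21249 and 27191 in wt/GFP and wt spheroids, against 9281 and 8601 in wt/GFP and wt monolayers. Both spheroid arrays were above both monolayer arrays, and the difference was smaller in wt/GFP than in wt. The log2 change was 1.19 in wt/GFP and 1.66 in wt, with a mean of 1.43 (SD 0.33, n = 2 lines), or 2.69-fold.

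IFITM3, through probe set 212203_x_at, had signals of 26700 and 33171 in wt/GFP and wt spheroids, against 10009 and 10247 in wt/GFP and wt monolayers. The cultures again did not overlap, and the monolayers of the lines were almost alike. The log2 change was 1.41 in wt/GFP and 1.69 in wt, with a mean of 1.55 (SD 0.20, n = 2 lines), or 2.94-fold. All 3 genes were at least 2-fold higher in spheroids of both lines, which held for 10.1% of all probe sets tested, and their cultures did not overlap in that direction, which held for 45.3%. Because the genes were chosen from this contrast, nothing is read from these shares. IFITM2 and IFITM3 stood far below IFITM1 in the order of changes, at places 1089 and 866 of 14349 genes.

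**Figure D1:**
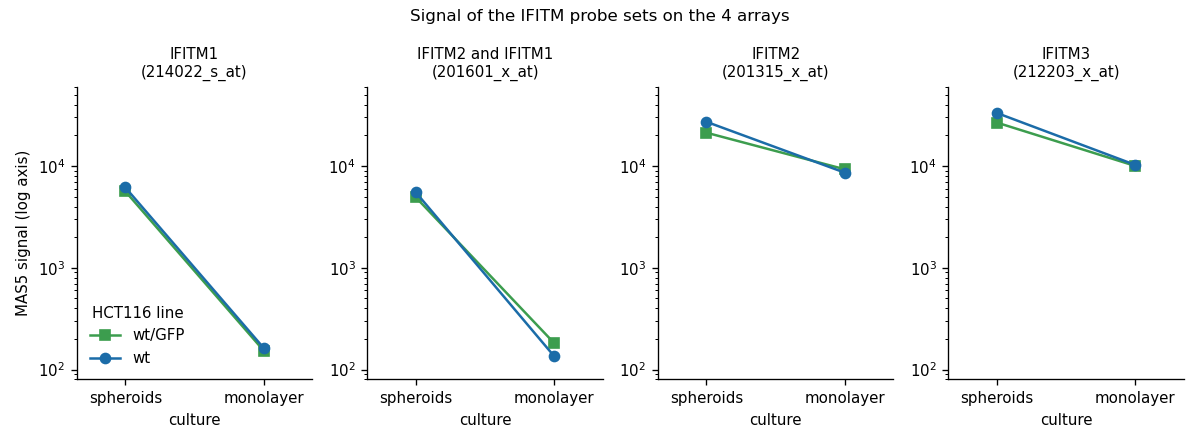
MAS5 signal (log axis) of the 3 IFITM probe sets and of the probe set shared by IFITM2 and IFITM1, in spheroids and monolayer; lines join the 2 arrays of wt/GFP (squares) and of wt (circles), 1 array per point. IFITM1 had 5643 and 6157 in spheroids against 153 and 163 in monolayers, and in each panel both spheroid arrays lie above both monolayer arrays.

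The log2 change of IFITM3 minus that of IFITM1 was -3.67 in wt/GFP and -3.43 in wt, and that of IFITM2 minus that of IFITM1 was -3.89 and -3.47. IFITM2 and IFITM3 were much closer to each other, with IFITM2 minus IFITM3 at -0.22 in wt/GFP and -0.034 in wt. The unequal change of IFITM1 and its relatives was thus present in each line.

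Cross-hybridisation matters for this family, since its members are close in sequence and RefSeq lists 12 IFITM pseudogenes, of which 0 are named on the array here. In this array's naming scheme the ending _x_at marks a probe set in which some probes may also match other transcripts, and _s_at one whose probes are shared by several transcripts. Each of the 4 IFITM probe sets carries one of these endings. A further probe set, 201601_x_at, is annotated to both IFITM2 and IFITM1 and so belongs to neither by the rule used. It had signals of 4922 and 5506 in wt/GFP and wt spheroids, against 182 and 135 in wt/GFP and wt monolayers. Its log2 change was 4.66 in wt/GFP and 5.21 in wt, with a mean of 4.93 (SD 0.39, n = 2 lines), or 30.6-fold.

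The change of IFITM1 minus that of the shared probe set was 0.42 log2 units in wt/GFP and -0.086 in wt. The change of IFITM2 minus that of the shared probe set was -3.46 in wt/GFP and -3.55 in wt. The shared probe set thus changed by nearly as much as the IFITM1 probe set and by far more than the IFITM2 probe set. Levels of different probe sets are not compared here, because probes bind with different strength. Whether IFITM1 transcripts contributed to the signal of the IFITM2 and IFITM3 probe sets was not tested, and probe sequences were not used here. Whether IFITM2 and IFITM3 transcripts bound each other's probe sets was not tested either.

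The scaling of the arrays moved the size of these changes but not their direction. As deposited, all genes tested had a median change of 0.23. Quantile normalization moved this median by -0.21, median centring by -0.39 and scaling to the 18 hybridisation controls by -0.59. The hybridisation controls, bacterial and phage transcripts added to each array, themselves had a median log2 difference, spheroids minus monolayer, of 0.78 in wt/GFP and 0.39 in wt. Relative to the median of all probe sets, the change was 4.87 for IFITM1, 1.32 for IFITM3 and 1.19 for IFITM2 as deposited. The smallest changes were found with the hybridisation controls, at 22.8-fold for IFITM1, 1.95-fold for IFITM3 and 1.78-fold for IFITM2.

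**Figure D2:**
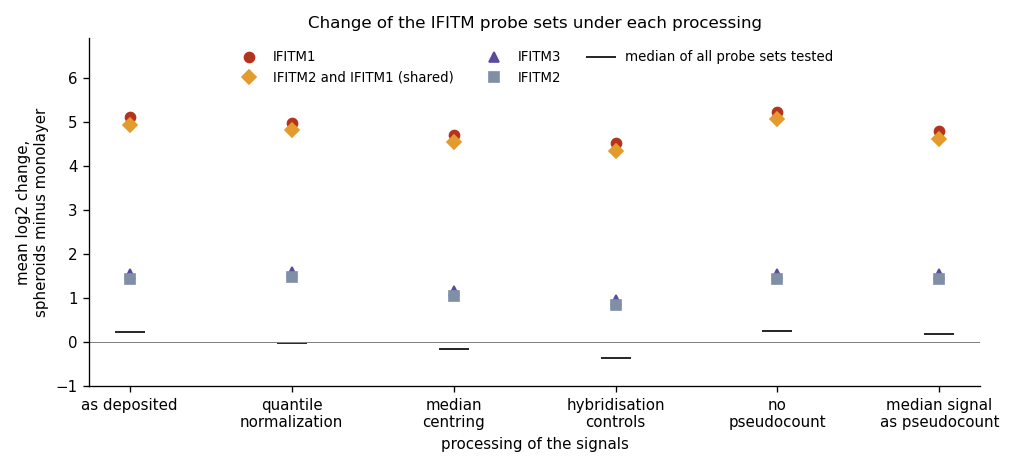
Mean log2 change, spheroids minus monolayer, of the IFITM probe sets under each processing of the signals; black bars are the median of all probe sets tested, and each point is the mean of the 2 lines. IFITM1 stayed between 4.51 and 5.22, while IFITM2 and IFITM3 stayed between 0.83 and 1.59.

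The difference between wt/GFP and wt was not used to choose the genes and could be tested. Between the lines 6 of 32768 probe sets, or 0.0183%, passed limma's adjusted p under 0.05. Of the 3 IFITM probe sets 0 passed, and 0 had an unadjusted p under 0.05. IFITM1 differed by -0.10 ± 0.14 log2 units, wt/GFP minus wt (moderated SE, 2 arrays per line, limma adjusted p = 0.985). IFITM2 differed by -0.12 ± 0.14 (limma adjusted p = 0.982) and IFITM3 by -0.17 ± 0.13 (limma adjusted p = 0.948). In spheroids wt/GFP minus wt was -0.13 for IFITM1, -0.36 for IFITM2 and -0.31 for IFITM3. In monolayers wt/GFP minus wt was -0.081 for IFITM1, 0.11 for IFITM2 and -0.034 for IFITM3. Whether the lines differed in the size of the culture change could not be tested with 1 array per line and culture.

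By the distance between log2 values centred on each gene's mean over the 4 arrays, the gene most like IFITM1 was PNRC1, at 0.43 log2 units. It was followed by LEMD1, a LEM domain protein, at 0.51, DDIT4L, a stress-induced inhibitor of mTOR signalling, at 0.91, ALDOC, an aldolase of glycolysis, at 0.94, and SELENOP, a secreted selenium carrier, at 0.97. PNRC1 had 8495 and 7429 in wt/GFP and wt spheroids, against 289 and 275 in the monolayers. These 5 genes had changes of 17.9-fold to 26.9-fold. Over 4 arrays this measure is mostly the size of the culture change. By the same measure IFITM3 took place 800 and IFITM2 place 1017 of 14348 genes.

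Interferon-stimulated genes were then taken from a list of 47, without the IFITM genes, of which 38 were tested. In spheroids 20 of 38, or 52.6%, rose and 0 fell, whereas 30.6% of all genes rose and 18.5% fell (limma, adjusted p under 0.05). The median over the list was 0.49 log2 units, beside 0.23 over all genes tested. With the hybridisation controls as scale, 7 of 38 were called higher and 1 lower, beside 6.91% and 26.2% of all genes. The list median was then -0.097, beside -0.37 over all genes tested. The 7 genes that rose under all 4 scalings were BST2, IFIT2, IFI6, IFIH1, IFI27, IFIT1 and PARP9. BST2, IFI27 and OAS1 averaged below the filter in the monolayers and were tested only because of their spheroid signals. Among genes above the filter in both cultures, 17 of 33 members of the list rose, or 51.5%, beside 31.1% of all genes.

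BST2, which tethers budding virus particles to the cell, had 263 and 218 in wt/GFP and wt spheroids, against 10.3 and 4.07 in the monolayers, both below the filter. Its difference of 3.60 log2 units on this scale depends on the pseudocount, since the monolayer signals were so low. IFIT2, an antiviral RNA-binding protein, had 320 and 311 in spheroids, against 94.8 and 22.9 in wt/GFP and wt monolayers. It rose by 2.38 ± 0.35 (limma adjusted p = 2.41e-06), with the lines apart in the monolayers. IFI6, a small interferon-induced protein, had 3743 and 3026 in spheroids against 683 and 627 in monolayers, and rose by 2.34 ± 0.13 (limma adjusted p = 3.33e-14).

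IFIH1, a cytoplasmic sensor of double-stranded RNA, rose by 2.12 ± 0.25, and IFIT1, which binds foreign capped RNA, by 1.89 ± 0.20. IFI27, a mitochondrial interferon-induced protein, had a difference of 3.11 in wt/GFP and 0.78 in wt, its signals being 165 and 93.9 in spheroids against 6.69 and 48.7 in monolayers. The members with the smallest change were TRIM21, an antibody receptor in the cytosol, at -0.018, SP110, a nuclear body protein, at 0.055, and HERC6, a ubiquitin ligase, at -0.059. None of these 3 passed the test. Of the 9 members not tested, 8 were below the filter, among them MX1, a dynamin-like antiviral GTPase, with 13.5 and 60.9 in wt/GFP and wt spheroids, against 3.55 and 6.14 in the monolayers. RSAD2, an antiviral enzyme also known as viperin, was likewise below the filter.

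The core of the response element was found in 12 of 17 promoters of list members that rose, or 70.6%, and in 7 of 16, or 43.8%, of tested members that did not. It was found in 2.69% of the promoters of all genes tested. The core of the gamma-activated site went the other way, with 4 of 17, or 23.5%, of those that rose. Of tested members that did not rise, 5 of 16, or 31.2%, held it, beside 6.34% of all genes tested. The list members that rose include BST2, IFI27 and OAS1, which passed the filter only through their spheroid signals. Promoters of 33 of the 38 tested members were matched. The counts describe how often these letters occur, and no test was made between the 2 groups.

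**Figure D3:**
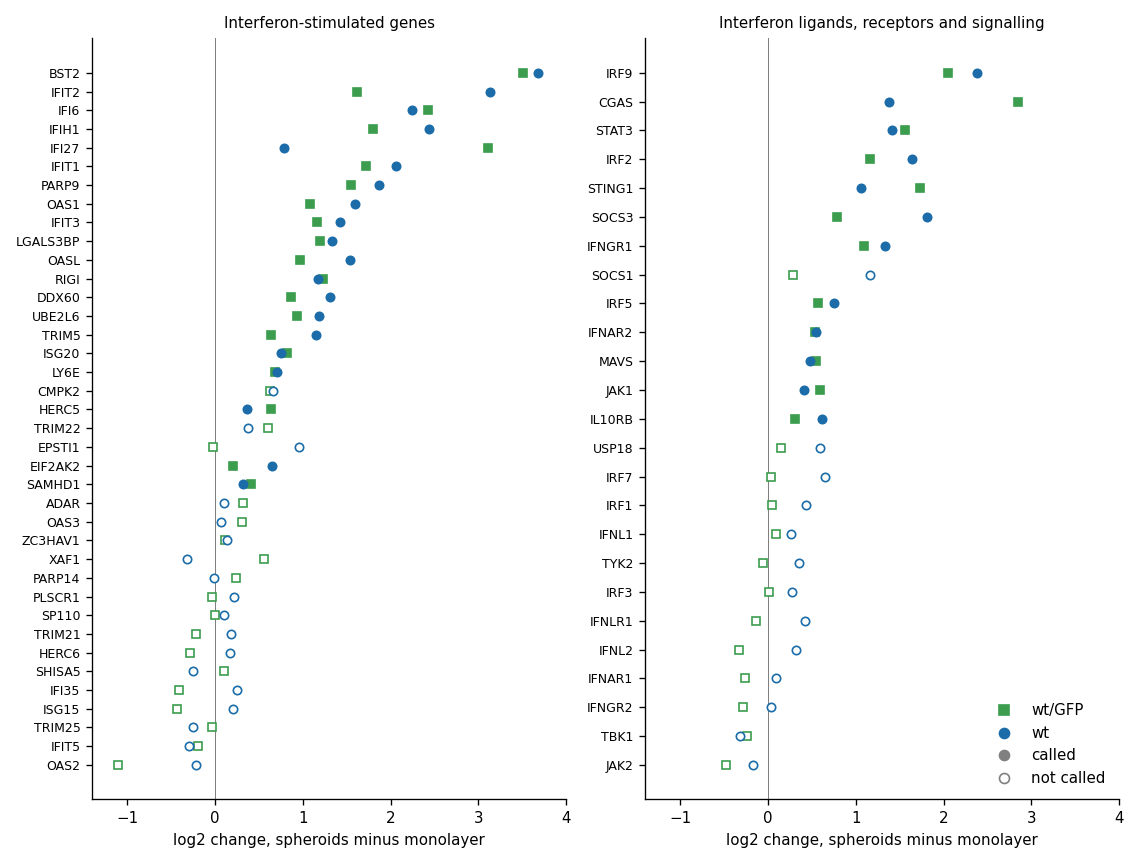
Log2 change, spheroids minus monolayer, in wt/GFP (squares) and wt (circles) for the tested interferon-stimulated genes (left) and interferon ligands, receptors and signalling genes (right); filled symbols passed limma's adjusted p under 0.05 over both lines, open symbols did not. BST2 leads the left panel with 3.51 and 3.68, and IRF9 the right panel with 2.06 and 2.38.

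Of 34 ligands, receptors and signalling genes of the interferon pathway, 25 were tested, and 12, or 48.0%, rose while 0 fell, beside 30.6% and 18.5% of all genes. The list median was 0.46, beside 0.23 for all genes. With the hybridisation controls as scale it was -0.13, beside -0.37 for all genes, and 4 were called higher and 2 lower, beside 6.91% and 26.2% of all genes. Among the ligands, IFNA1, IFNA2, IFNB1, IFNG, IFNK and IFNE were below the filter on average. IFNB1, the interferon made by most cell types, had 4.26 and 7.21 in wt/GFP and wt spheroids, against 1.60 and 3.34 in the monolayers. IFNL1 and IFNL2, interferons of epithelial surfaces, were tested and did not pass, with values of 0.18 and -0.0078. Their signals were dim, at 40.1 to 56.3 for IFNL1 and 41.2 to 74.3 for IFNL2, not far above the filter of 30.6.

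Of the receptor chains, IFNAR1, the low-affinity chain of the type I receptor, had a value of -0.088 and did not pass. IFNGR2, the second chain of the gamma receptor, had -0.12 and did not pass, although it was called lower after median centring, at -0.52. The chains IFNGR1, IFNAR2 and IL10RB rose by 1.21, 0.54 and 0.46 as deposited, while IFNLR1, at 0.14, did not pass. With the hybridisation controls IFNGR1, IFNAR2 and IL10RB had 0.62, -0.053 and -0.13 and were not called. IRF9, a DNA-binding factor of the interferon response, had 971 and 998 in spheroids, against 223 and 181 in monolayers. It rose by 2.22 ± 0.19 log2 units (moderated SE, limma adjusted p = 1.20e-10), the largest change of this list. CGAS, a sensor of cytoplasmic DNA, had 137 and 148 in wt/GFP and wt spheroids, against 6.93 and 48.3 in the monolayers, whose mean lay below the filter, so that it was tested only because of its spheroid signals. STING1, which acts downstream of CGAS, rose by 1.39 ± 0.22. STAT3, a factor of interleukin-6 signalling, rose by 1.48 ± 0.13 and SOCS3, an inhibitor of that pathway, by 1.30 ± 0.18, although 1 of the 3 other STAT3 probe sets moved the opposite way. IRF2, a repressor and activator of interferon-responsive genes, rose by 1.40 ± 0.29. IRF9, CGAS, STAT3 and STING1 were called higher under all 4 scalings.

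Among proteins known to act on or with IFITM proteins, 11 of 11 genes were tested. Of these 5 rose, or 45.5%, beside 30.6% of all genes, and 2 fell, or 18.2%, beside 18.5% of all genes. CD9, a tetraspanin of the cell surface, had 29465 and 25533 in spheroids, against 12293 and 12142 in monolayers, and rose by 1.17 ± 0.13 log2 units (moderated SE, limma adjusted p = 1.13e-08). Its relative CD81, a partner of IFITM1 at the surface, did not pass, with a value of -0.11, but was called lower after median centring, at -0.50, and with the hybridisation controls, at -0.70. ZDHHC20, a palmitoyltransferase that modifies IFITM3, rose by 1.02 ± 0.12 but was not called with the hybridisation controls as scale. ZMPSTE24, a metalloprotease that cooperates with IFITM proteins, had 5324 and 4781 in spheroids against 8911 and 8965 in monolayers, and fell by 0.82 ± 0.12 (limma adjusted p = 9.78e-07).

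VCP, an ATPase that extracts ubiquitinated proteins, fell by 0.69 ± 0.12, also under all 4 scalings. FYN, a kinase that phosphorylates IFITM3, rose by 0.94 ± 0.22 and was likewise not called with the hybridisation controls. VAPA, a tether of membrane contacts that IFITM3 binds, and OSBP, its oxysterol-binding partner, rose by 0.32 and 0.33, with another probe set of each moving the opposite way, but turned to -0.28 and -0.26 with the hybridisation controls and to -0.075 and -0.063 after median centring. NEDD4, a ubiquitin ligase of IFITM3, had a value of -0.44, SETD7, a methyltransferase, -0.13 and CAV1, a coat protein of caveolae, -0.28, and none of these passed as deposited. NEDD4 and CAV1 were called lower under each of the other 3 scalings, with values of -0.74 to -1.03 and -0.41 to -0.87, and SETD7 after median centring, at -0.52.

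Of 9 relatives that share the CD225 domain, 3 were tested and 3 rose, beside 30.6% of all genes. TMEM91 and IFITM10 averaged below the filter in the monolayers and were tested only because of their spheroid signals, so that the count carries little. TMEM91 had 157 and 144 in spheroids against 40.2 and 12.2 in monolayers. IFITM10 had 115 and 65.2 in wt/GFP and wt spheroids, against 33.4 and 2.12 in the monolayers. PRRT2, a protein of synapses, rose by 1.20 ± 0.33. The calls of IFITM10 and PRRT2 were lost with the hybridisation controls. TRARG1, SYNDIG1 and SYNDIG1L were below the filter.

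The genes around the family on chromosome 11 were taken in RefSeq order, 5 before and 6 after it. Of these 9 were tested, and 6 rose and 1 fell, or 66.7% and 11.1%, beside 30.6% and 18.5% of all genes. The nearest measured gene on one side, PGGHG, which encodes a glucosidase acting on collagen sugars, had 731 and 756 in spheroids against 173 and 138 in monolayers, and rose by 2.17 ± 0.21 log2 units (moderated SE, limma adjusted p = 1.42e-09). ANO9, an anoctamin, rose by 2.31 ± 0.24 (limma adjusted p = 8.02e-09), and both were called under all 4 scalings. SIRT3, a mitochondrial deacetylase, rose by 0.83 ± 0.20 but was not called after median centring or with the hybridisation controls. PKP3, a desmosomal plakophilin, SIGIRR, an inhibitory receptor of the interleukin-1 family, and PTDSS2, a phosphatidylserine synthase, rose by 0.57, 0.58 and 0.56, but had -0.017, -0.0089 and -0.035 with the hybridisation controls.

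RNH1, the ribonuclease inhibitor, fell by 0.45 ± 0.12, and was called lower under all 4 scalings, although another of its probe sets moved the opposite way. B4GALNT4, a glycosyltransferase and the nearest measured gene on the other side, had a value of 0.54 and BET1L, a Golgi SNARE, -0.14, and neither passed as deposited. BET1L was called lower after median centring, at -0.53, and B4GALNT4 had -0.054 with the hybridisation controls. NLRP6, an inflammasome receptor of the intestine, and CIMAP1A were below the filter. The 3 IFITM genes thus lay among neighbours whose mean changes ranged from -0.45 to 2.31.

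**Figure D4:**
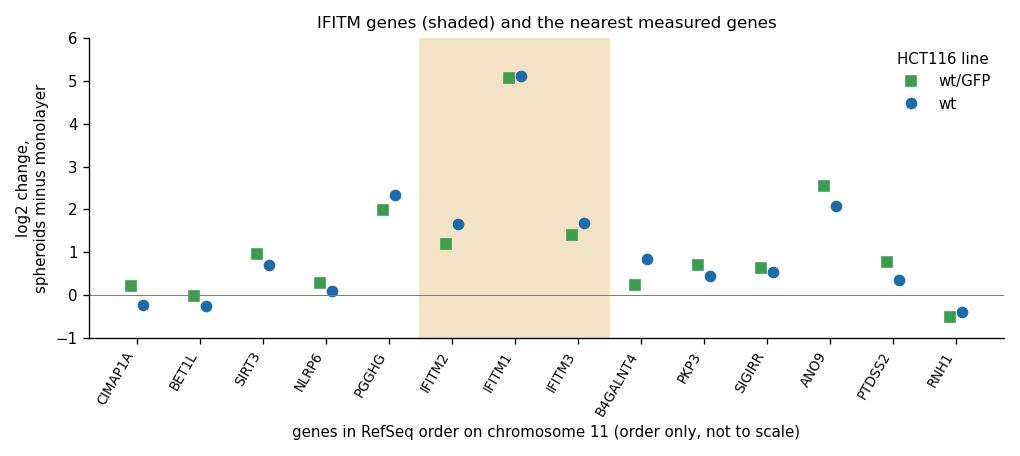
Log2 change, spheroids minus monolayer, of the IFITM genes (shaded) and of the nearest measured genes on chromosome 11 in RefSeq order, for wt/GFP (squares) and wt (circles), 1 value per line, with CIMAP1A and NLRP6 below the filter. IFITM1 stands at 5.08 and 5.13, while the neighbours PGGHG and ANO9 have values of 1.99 to 2.54.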

How the data were processed

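The authors deposited MAS5 intensities on a linear scale, per the submitters' processing notes, 1 column per array, with no version or settings given in the sources used here. The 2% trimmed mean was 500.1 on each array. Probe sets were named from the platform annotation, with symbols updated through gene identifiers (41037 of 41091 with 1 symbol). Signals were taken as log2(signal + 14.0), the pseudocount being the 25th percentile, and probe sets were tested if their mean exceeded the 40th percentile, 5.48, a signal of 30.6. That left 32768 probe sets, or 14349 genes by the brightest probe set.

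Linear models were fitted in limma 3.58.1 (R 4.3.3) to culture plus line, eBayes with a trend, and Benjamini-Hochberg adjustment over all features, two-sided. With 1 residual degree of freedom, moderated by 25.9 prior ones, p-values rest mainly on the spread pooled across genes. Pairing comes from the line in the labels; the line differences in the 2 cultures correlated at 0.00684 across genes. The fit was tested on simulated data.

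Members, lists and tests were chosen with earlier results of these data known. Named genes were all IFITM probe sets, all measured genes of the 3 short lists, and in the 2 longer lists the 6 called members with the largest change and the 3 tested members with the smallest. PARP9, OAS1, IFNL1, IFNB1, IFNGR1, IFNAR2, IL10RB, IFNLR1, MX1, RSAD2 and the other members below the filter were named after their values were seen. Likeness was the Euclidean distance of centred log2 values. The number of arrays limits the precision. Alternatives are given in the closing section.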

Additional observations from a re-analysis of the deposited data

Results flagged for a closer look

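The log2 change between spheroids and monolayer ran in opposite directions in wt/GFP and wt for 5 of the 6 members that were named for the smallest changes of the 2 interferon lists, and the difference was not tested. These members were named because the mean of their 2 changes was nearest to 0, which itself favours opposite signs. The count therefore follows largely from the rule and says nothing of the lines. Cell type markers and genes below the filter were left out of this comparison. It was -0.29 in wt/GFP and 0.17 in wt for HERC6, -0.22 and 0.18 for TRIM21, and -0.33 and 0.32 for IFNL2. It was -0.26 in wt/GFP and 0.087 in wt for IFNAR1, and -0.28 and 0.035 for IFNGR2.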

How the results depend on the processing

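The 3 IFITM probe sets were higher in spheroids under all 5 scalings and pseudocounts tried and without each array. IFITM1 had a log2 change of 4.98 after quantile normalization, 4.71 after median centring, 4.51 with the hybridisation controls, 5.22 without a pseudocount and 4.79 with the median signal as pseudocount, and between 5.04 and 5.17 without single arrays. IFITM2 and IFITM3 had 1.04 and 1.16 after median centring and 0.83 and 0.96 with the hybridisation controls. The change in wt/GFP minus that in wt was -0.86 for IFITM2, -0.67 for IFITM3 and -0.44 for IFITM1 with the hybridisation controls, and 0.035 for IFITM1 after quantile normalization, which turned its sign. No line difference of an IFITM probe set passed under any alternative.

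Genes called higher and lower numbered 4393 and 2657 as deposited, 3379 and 3002 after quantile normalization, 2348 and 4639 after median centring, 992 and 3754 with the hybridisation controls, and 2646 and 1174 without a trend in the moderation. Probe sets numbered 8342 and 4795, with 5648 and 5979, 4285 and 8825, 1874 and 7738, and 2180 and 677 in the same order. Without the line as a block, 4112 genes were higher and 2515 lower. Between the lines, probe sets called higher and lower in wt/GFP numbered 2 and 4 as deposited, 0 and 1 after quantile normalization, without a pseudocount and without a filter, 0 and 4 after median centring, 3 and 2 with the hybridisation controls, 4 and 6 with the filter at the 60th percentile, and 0 and 0 without the trend.

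Interferon-stimulated genes called higher numbered 20 as deposited, 14 after median centring and 7 with the hybridisation controls. These were 52.6%, 36.8% and 18.4% of those tested, beside 30.6%, 16.4% and 6.91% of all genes. Those called lower numbered 0, 5 and 1, beside 18.5%, 32.3% and 26.2% of all genes. Single arrays left out gave 15 to 17 higher and 0 to 1 lower, and every probe set tested alone gave 1 lower. Ligands, receptors and signalling genes called higher numbered 12 as deposited, 7 after median centring and 4 with the hybridisation controls. These were 48%, 28% and 16% of those tested, beside 30.6%, 16.4% and 6.91% of all genes. Without the trend 6 were called higher, where 2646 of all genes were. Lower calls were 0 as deposited, 2 after median centring, with the hybridisation controls and with the median signal as pseudocount, and 1 with the stricter filter and with every probe set tested alone. Of all genes 18.5% were lower as deposited and 32.3% after median centring. With the hybridisation controls this share was 26.2%, and with the median signal as pseudocount 18.9%. Without the wt/GFP spheroid array 2 were lower, against 0 without each of the other arrays. The cause of these shifts was not tested. With 3 arrays the line term could not be fitted and was left out.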
